A study of Homo sapiens with 12 samples.

Results

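ATF4 and 9 genes of the integrated stress response were followed over a 24 h treatment of A375, an established human melanoma line with mutant BRAF. The 10 genes were taken by name from the 26475 genes of the deposited count table: ATF4, DDIT3, ATF3, CEBPB, ASNS, CHAC1, TRIB3, SESN2, DDIT4 and STC2. Every one of the 10 passed the filter on low counts. Cells received 1 µM GSK343 and 1 µM XL413 together, 1 µM GSK343, 1 µM XL413 or DMSO, the solvent, with 3 biological replicates in each of 4 groups. EZH2, the target of GSK343, methylates histone H3 as part of a Polycomb complex, and CDC7, the target of XL413, is a kinase needed to fire replication origins. All groups share the same cell line and the same growth medium, and the poly-A RNA libraries were made from bulk cultures, in which fewer cells of a type and less RNA per cell cannot be told apart.

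In the integrated stress response, kinases that sense amino acid shortage, unfolded proteins, viral RNA or mitochondrial and haem stress phosphorylate the initiation factor eIF2. Most translation then slows, while ATF4, whose leader holds upstream reading frames, is translated more. ATF4 protein is a basic leucine zipper (bZIP) factor that binds C/EBP-ATF response elements and drives amino acid synthesis and uptake, tRNA charging and, with DDIT3 (CHOP), genes of cell death. ATF4 is controlled mostly at translation, and poly-A RNA reads its mRNA only. The counts hold no measure of eIF2 phosphorylation or of ATF4 protein.

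Library totals ran from 31553205 to 39079931 expected counts, and the filter kept 15443 genes. Of the 12 libraries, GSK343+XL413 replicate 2 was unlike the rest. Across genes, the SD of its log2 difference from the mean of its fellow libraries was 0.277, while the remaining 11 had 0.134 to 0.178. That difference was negatively related to transcript length (rho −0.64, Spearman, over 12163 genes that are not independent replicates). For the other 11 libraries this rho ran from −0.447 to 0.565. GSK343+XL413 replicates 1 (0.493) and 3 (0.565) were set against a mean that holds replicate 2, which also enters their SD. In the other groups rho ran from −0.447 (GSK343 replicate 1) to 0.521 (GSK343 replicate 3). A trend with length was thus not confined to the GSK343+XL413 group. The log2 fold changes against DMSO had rho −0.396 with both compounds, 0.0172 with GSK343 and −0.252 with XL413. The main counts are repeated without GSK343+XL413 replicate 2. The line was checked by marker genes. SOX10, the neural crest factor of melanoma cells, was at 296 to 370 CPM (counts scaled to library size) and the receptor AXL at 338 to 486 CPM, while the pigment enzyme gene TYR was at 0 in every library and MLANA reached at most 0.204 CPM. The leukocyte gene PTPRC reached 0.0875 CPM and the epithelial gene EPCAM 0.224 CPM. The summed level of 5 markers of undifferentiated melanoma was 890.1 to 1204 CPM with GSK343+XL413, 1207 to 1295 with GSK343, 1249 to 1339 with XL413 and 1359 to 1362 in DMSO. Most of that sum came from TNC (408 to 776 CPM over all libraries) and AXL, while NGFR was at 45.8 to 53.5. The sum was not repeated without GSK343+XL413 replicate 2. The summed melanoma and melanocyte markers were at 370.5 to 391 CPM with GSK343+XL413 and 371.6 to 401.7 with GSK343. They were at 397.9 to 434.3 with XL413 and 393.6 to 426.6 in DMSO. The part of these differences in the results below was not tested.

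Scaled to transcript length, ATF4 had the highest level of the 10 genes in every group. In the DMSO libraries it was at 168 to 176 CPM per kilobase, followed by DDIT4 at 72.6 to 76.3, ASNS at 63.3 to 65.9, TRIB3 at 32.1 to 32.6 and CEBPB at 17.6 to 19.7. DDIT3 at 10.7 to 12.1 and STC2 at 10.3 to 11.1 overlapped and did not differ beyond their spread. SESN2 was at 5.08 to 5.15, ATF3 at 4.07 to 4.1 and CHAC1 at 2.13 to 3.24 CPM per kilobase. In plain CPM, ATF4 stood at the 96.8th percentile of the tested genes by mean level and CHAC1 at the 27th. The counts behind CHAC1 were 99 to 198 per library, and those behind ATF4 were 9525 to 12347.

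Promoter windows from RefSeq (GRCh38.p14, 250 bases before to 50 after each start) were available for all 10 genes. They were searched on both strands for TGATGNAA, the core of the C/EBP-ATF response element, and on the other strand TTNCATCA. The motif was in 3.62% of all 35116 windows and in 4.46% of 27305 genes. Of the 10 genes, 3 held it, in 3 of their 17 windows: CHAC1, ASNS and ATF3. TGACGTCA and TGACGCAA, the elements of CREB and ATF factors, were in 1.85% and 0.513% of windows and in none of the 10 genes. A match is a description of letters and not evidence that a factor binds there. The 3 sites follow, and after them those of 5 of the 11 transporter and synthetase genes that held the motif. These 5 were chosen after their values were seen, as the ones whose fall with both compounds held in all 12 fits that left out a library. They run 5′ to 3′ on the gene's strand, and capitals mark the motif.
CHAC1: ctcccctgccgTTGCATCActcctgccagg
ASNS: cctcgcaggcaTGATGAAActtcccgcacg
ATF3: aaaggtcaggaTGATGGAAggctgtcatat
SLC3A2: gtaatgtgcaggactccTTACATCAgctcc
SLC1A5: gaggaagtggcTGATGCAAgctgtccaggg
AARS1: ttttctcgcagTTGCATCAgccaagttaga
GARS1: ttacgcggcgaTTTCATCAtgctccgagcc
MARS1: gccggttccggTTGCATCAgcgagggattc

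The ASNS stretch is chr7:97872458-97872487 on the minus strand and its motif begins 68 bases before the start (position −68). That of CHAC1 is chr15:40953251-40953280 on the plus strand with the motif at −209, and that of ATF3 is chr1:212565205-212565234 on the plus strand with the motif at −191. Motif positions count from the RefSeq start of the window. The gene spans given further on come from the GENCODE annotation, whose starts can differ. The stretches of ASNS and CHAC1 lie inside those spans. The stretch of SLC3A2 is chr11:62881719-62881748 and that of GARS1 chr7:30594834-30594863, both on the plus strand, with motifs at 38 and −33. That of MARS1 is chr12:57488053-57488082 on the plus strand with the motif at −4. On the minus strand, that of SLC1A5 is chr19:46784893-46784922 with the motif at −97, and that of AARS1 is chr16:70289675-70289704 with the motif at −187. The count table has the last 3 synthetases as AARS, GARS and MARS. By list, 7 of 10 aminoacyl-tRNA synthetase genes with a promoter window held the motif, as did 4 of 7 amino acid transporter genes and 0 of 7 genes of serine, glycine and one-carbon metabolism. The share was 1 of 13 for secreted, survival and signalling targets, 1 of 10 for eIF2, eIF2B and the phosphatases, 0 of 7 for eIF2 kinases, 2 of 15 for other bZIP factors and 0 of 5 for paralogs of the 10 genes. It was 1 of 15 for the IRE1 and ATF6 arms and 0 for each list of p53, hypoxia, MAPK and glucocorticoid genes. The first 3 lists and the secreted list hold genes known as ATF4 targets, and all lists were chosen with earlier results of these data known.

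**Figure D1:**
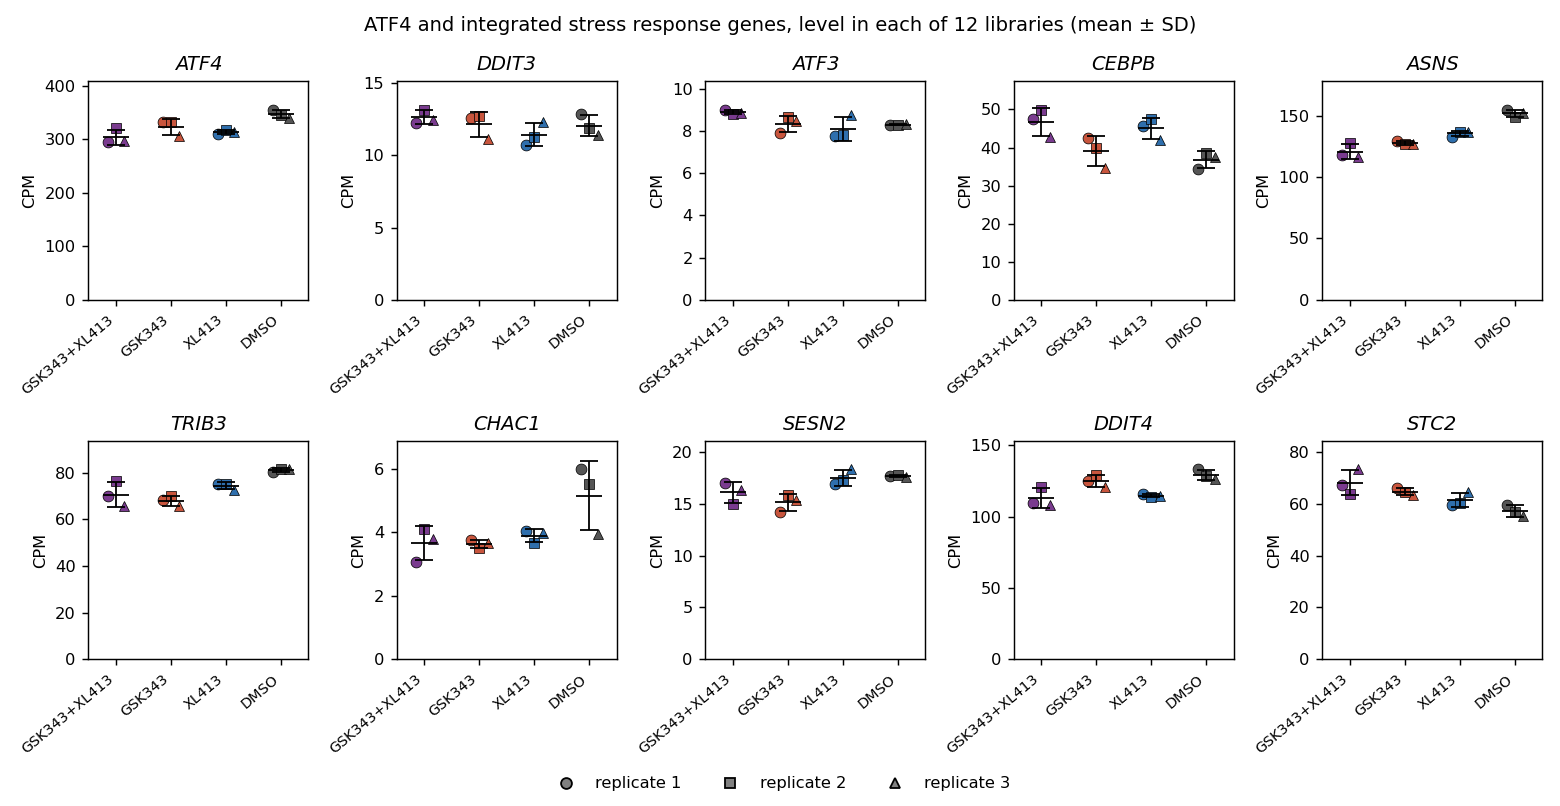
Level of each of the 10 genes in each library, in CPM (linear axis from 0), by group; points are libraries, with a shape for each replicate number, and bars are mean ± SD of 3 libraries. ATF4, TRIB3 and ASNS are lower in every treated library than in any DMSO library, and CEBPB is higher in all XL413 and GSK343+XL413 libraries than in DMSO.

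With both compounds, 7 of the 10 genes changed against DMSO by edgeR's quasi-likelihood test at an adjusted p under 0.05, where 13.9% of all tested genes did. ATF4, ASNS, CHAC1, TRIB3 and DDIT4 fell, where 7.25% of all genes did, and STC2 and CEBPB rose, where 6.69% did; DDIT3, ATF3 and SESN2 were not called. With GSK343 alone, ASNS and TRIB3 fell and 8 genes were not called, against 1.17% of all genes called (0.44% lower and 0.725% higher). With XL413 alone, 0 of the 10 were called, against 0.427% of all genes (0.149% lower and 0.278% higher); 6 of the 10 had an unadjusted p under 0.05, as did 2114 of all genes, and DESeq2 called 2, ASNS lower and CEBPB higher. The median log2 fold change of the 10 genes was −0.16 with both compounds, −0.08 with GSK343 and −0.10 with XL413, against medians of 0.006, 0.0011 and −0.0068 over all tested genes. These 3 comparisons share the DMSO libraries and are given side by side only.

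Without GSK343+XL413 replicate 2, the count was again 7 of 10 with both compounds, the same 7 genes. It was 5 of 10 with GSK343, where CHAC1 and SESN2 (both lower) and STC2 (higher) joined ASNS and TRIB3, and 4 of 10 with XL413, where ATF4, ASNS and DDIT4 were lower and CEBPB higher. In the same fits 15% of all genes were called with both compounds, 6.15% with GSK343 and 4.85% with XL413. That library is in neither single-compound comparison, but all groups share 1 estimate of the spread.

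**Figure D2:**
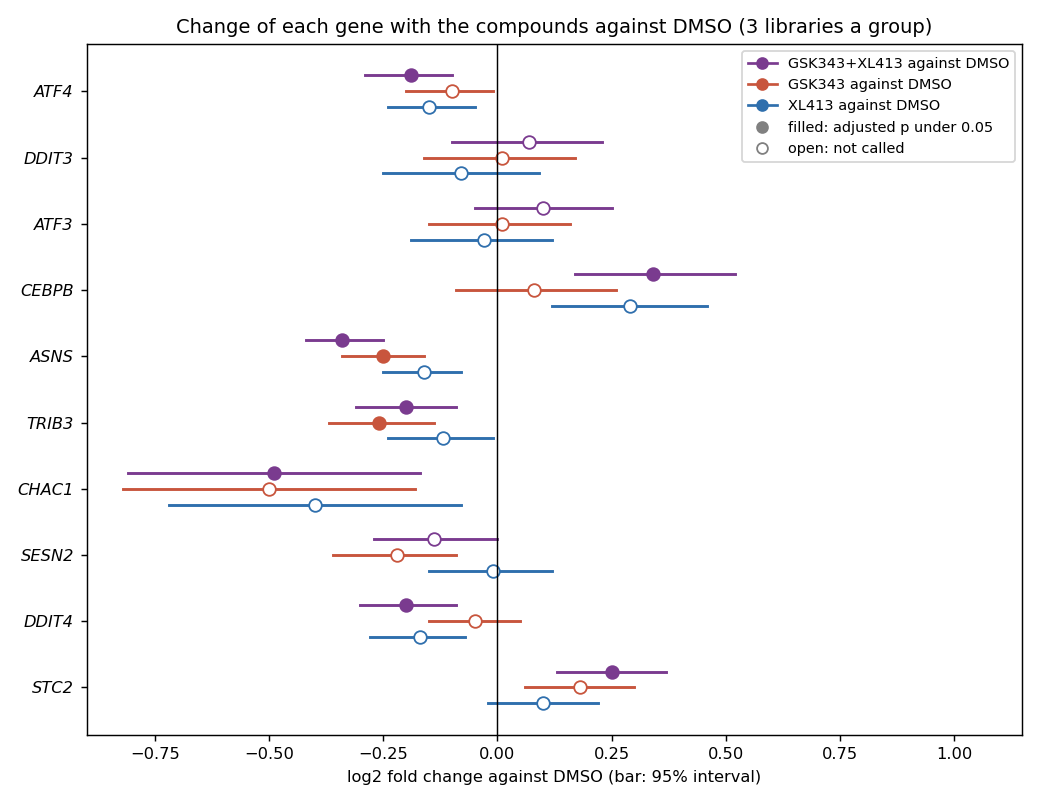
log2 fold change of each gene against DMSO for GSK343+XL413, GSK343 and XL413, with bars for the 95% interval; filled points have an adjusted p under 0.05. Intervals of ATF4, ASNS, TRIB3 and CHAC1 lie below 0 in all 3 comparisons, and those of DDIT3 and ATF3 include 0 in all 3.

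Among the transcription factors, ATF4 itself (chromosome 22, 39519695 to 39522685, plus strand, hg38) fell modestly with both compounds. Its level was 295, 320.3 and 297 CPM with GSK343+XL413, 333, 332 and 306 with GSK343, 309.6, 318 and 313 with XL413, and 356, 346 and 340.1 in DMSO. All 9 treated libraries lay below all 3 DMSO libraries, and the treated groups overlapped each other. The log2 fold change was −0.19 ± 0.0437 (SE) with both compounds (adjusted p = 0.0135), a level 12.4% below DMSO, and it was no longer called without DMSO replicate 1 (adjusted p = 0.0573) or in a fit of only the groups compared (0.0614). With GSK343 it was −0.10 ± 0.0436 (adjusted p = 0.299) and with XL413 −0.15 ± 0.0437 (adjusted p = 0.161, and 0.0263 without GSK343+XL413 replicate 2). A fit of only the groups compared called ATF4 lower with XL413 (adjusted p = 0.00704).

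DDIT3, which encodes the CHOP factor linked to stress-induced cell death, was not called in any comparison. It was at 12.3, 13.2 and 12.5 CPM with both compounds, 12.6, 12.7 and 11.2 with GSK343, 10.7, 11.3 and 12.3 with XL413, and 12.9, 11.9 and 11.4 in DMSO. The 4 groups overlapped. The 95% intervals of the log2 fold change ran from −0.10 to 0.23 with both compounds, from −0.16 to 0.17 with GSK343 and from −0.25 to 0.09 with XL413. In the annotation DDIT3 (chromosome 12, 57516588 to 57521737, minus strand) overlaps MARS and MBD6 on the opposite strand. The libraries were strand-specific per the labels, and the strand setting of the counting is not given in the sources used here; the DDIT3 counts, 352 to 508, were whole in all 12 libraries.

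ATF3 (chromosome 1, 212565334 to 212620777, plus strand), a stress-induced bZIP factor, was at 9.02, 8.82 and 8.85 CPM with both compounds, 7.92, 8.66 and 8.47 with GSK343, 7.76, 7.82 and 8.78 with XL413, and 8.30, 8.27 and 8.34 in DMSO. The combination libraries lay above every library of the other groups, by a small margin, but the gene was not called against DMSO (log2 fold change 0.10 ± 0.0711, adjusted p = 0.371). It was not called with GSK343 (0.01 ± 0.0715) or XL413 (−0.03 ± 0.0718) either.

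CEBPB, a C/EBP factor that dimerises with ATF4, moved the other way from ATF4. It was at 47.4, 50 and 42.8 CPM with GSK343+XL413, 42.5, 40.01 and 34.7 with GSK343, 45.6, 47.5 and 42 with XL413, and 34.3, 38.5 and 37.6 in DMSO. All libraries that received XL413, alone or with GSK343, lay above DMSO, while the GSK343 group overlapped DMSO. The rise with both compounds was 0.34 ± 0.08 (log2, adjusted p = 0.0148), 26.9% over DMSO, and was lost without DMSO replicate 1 (adjusted p = 0.0655). With XL413 the log2 fold change was 0.29 ± 0.0803 (adjusted p = 0.14, and 0.0266 without GSK343+XL413 replicate 2) and with GSK343 0.08 ± 0.0806 (adjusted p = 0.702). The rise with XL413 was called in a fit of only the groups compared (adjusted p = 0.00486). CEBPB (chromosome 20, 50190734 to 50192689, plus strand) overlaps the antisense gene CEBPB-AS1, which had 23.1 to 49.7 expected counts per library beside 1134 to 1927 for CEBPB. CEBPB values were fractional in all 12 libraries, and those of the other 9 genes were whole.

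ASNS (chromosome 7, 97852118 to 97872542, minus strand), the asparagine synthetase and a textbook ATF4 target, gave the smallest adjusted p of the 10 genes in each of the 3 comparisons with DMSO. Its level was 118, 128 and 116 CPM with both compounds, 129, 127 and 127 with GSK343, 133, 137 and 137 with XL413, and 155, 149 and 152 in DMSO. Every treated library lay below every DMSO library, and the combination also lay below XL413. The fall was 0.34 ± 0.0412 on the log2 scale with both compounds (adjusted p = 0.000617), 20.7% below DMSO, and it was called in all 12 fits that left out a library. With GSK343 it fell by 0.25 ± 0.0411 (adjusted p = 0.0111). Leaving out any 1 of the DMSO libraries, GSK343 replicate 2 or GSK343 replicate 3 ended that call (adjusted p up to 0.073). With XL413 the log2 fold change was −0.16 ± 0.0411 (adjusted p = 0.105, and 0.00739 without GSK343+XL413 replicate 2). It was called in a fit of only the groups compared (adjusted p = 0.00628).

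CHAC1 (chromosome 15, 40952962 to 40956519, plus strand) encodes a glutathione-degrading enzyme induced by ATF4 and CHOP. It was at 3.07, 4.12 and 3.78 CPM with both compounds, 3.75, 3.51 and 3.67 with GSK343, 4.05, 3.65 and 3.995 with XL413, and 5.996, 5.54 and 3.94 in DMSO. DMSO replicate 3 was within the range of the treated libraries, while the other DMSO libraries were above them all. With both compounds CHAC1 fell by 0.49 ± 0.149 (log2, adjusted p = 0.0441), the largest fold change among the 10 genes, with the largest SE. That call held in 2 of 12 fits that left out a library, those without DMSO replicate 3 or GSK343+XL413 replicate 2, and in the others the adjusted p was 0.0508 to 0.161. It was also lost with upper quartile scaling (adjusted p = 0.0607), in a fit of only the groups compared (0.146) and with the replicate number as a term (0.0628). The log2 fold change was −0.50 ± 0.149 with GSK343 (adjusted p = 0.134; 0.0493 without GSK343+XL413 replicate 2) and −0.40 ± 0.149 with XL413 (adjusted p = 0.254).

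TRIB3 (chromosome 20, 362835 to 397559, plus strand), a pseudokinase induced by ATF4 and CHOP that feeds back on ATF4, was at 69.8, 76.4 and 65.5 CPM with both compounds, 68.2, 70 and 65.5 with GSK343, 75.3, 75.2 and 72.6 with XL413, and 80.2, 81.5 and 81.5 in DMSO. Treated and DMSO libraries did not overlap in any of the 3 comparisons. TRIB3 fell by 0.26 ± 0.0522 (log2) with GSK343 (adjusted p = 0.032), 16.2% below DMSO, and by 0.20 ± 0.0522 with both compounds (adjusted p = 0.0246). The GSK343 call held in 2 of 12 fits, those without GSK343+XL413 replicate 2 or 3; without any other library the adjusted p was 0.055 to 0.157. The combination call ended when GSK343+XL413 replicate 1 or 3 or any 1 of the DMSO libraries was left out (highest adjusted p 0.0756) and in a fit of only the groups compared (0.1). Both were lost with upper quartile scaling (adjusted p = 0.0765 with GSK343 and 0.0653 with both). With XL413 the log2 fold change was −0.12 ± 0.0521 (adjusted p = 0.311, and 0.0368 in a fit of only the groups compared).

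SESN2 and DDIT4 encode stress-induced inhibitors of mTORC1, the kinase complex that couples growth to nutrients. DDIT4 (REDD1, chromosome 10, 72273920 to 72276036, plus strand) was at 109.5, 121 and 108 CPM with both compounds, 125, 129 and 121 with GSK343, 116, 114 and 115 with XL413, and 133, 128 and 127 in DMSO. The groups that received XL413 lay below DMSO, and the GSK343 group overlapped DMSO. DDIT4 fell by 0.20 ± 0.0476 with both compounds (log2, adjusted p = 0.0172), a call lost without DMSO replicate 1 (adjusted p = 0.0704) or 2 (0.0505), with upper quartile scaling (0.0544) and in a fit of only the groups compared (0.0857). The log2 fold change was −0.17 ± 0.0476 with XL413 (adjusted p = 0.137, and 0.0116 without GSK343+XL413 replicate 2) and −0.05 ± 0.0475 with GSK343 (adjusted p = 0.709). The fall with XL413 was called in a fit of only the groups compared (adjusted p = 0.00559).

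SESN2 (chromosome 1, 28259527 to 28282491, plus strand), a sestrin that senses leucine, showed a different order of groups. It was at 17, 15 and 16.3 CPM with both compounds, 14.2, 15.8 and 15.4 with GSK343, 16.9, 17.2 and 18.3 with XL413, and 17.7, 17.8 and 17.6 in DMSO. The groups that received GSK343 lay below DMSO, and the XL413 group overlapped DMSO. The gene was not called: the log2 fold change was −0.14 ± 0.0631 with both compounds (adjusted p = 0.163), −0.22 ± 0.0633 with GSK343 (adjusted p = 0.115; 0.0364 without GSK343+XL413 replicate 2) and −0.01 ± 0.0629 with XL413 (adjusted p = 0.944).

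STC2 (chromosome 5, 173314713 to 173329503, minus strand), which encodes the secreted glycoprotein stanniocalcin 2, rose where most of the other genes fell. It was at 67.1, 63.7 and 73.3 CPM with both compounds, 65.9, 64.6 and 63.3 with GSK343, 59.3, 60.1 and 64.5 with XL413, and 59.5, 56.7 and 55.2 in DMSO. The groups that received GSK343 lay above DMSO, and XL413 overlapped DMSO. The rise with both compounds was 0.25 ± 0.0554 (log2, adjusted p = 0.0113), a call lost without DMSO replicate 2 (adjusted p = 0.0526) or 3 (0.0561) and in a fit of only the groups compared (0.067). The log2 fold change was 0.18 ± 0.0555 with GSK343 (adjusted p = 0.155, and 0.0267 without GSK343+XL413 replicate 2) and 0.10 ± 0.0557 with XL413 (adjusted p = 0.439). The rise with GSK343 was called in a fit of only the groups compared (adjusted p = 0.0367).

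By the bare order of libraries, 8 of the 10 genes had no overlap between GSK343+XL413 and DMSO, against 33.7% of all tested genes: 5 lower (17.4%) and 3 higher (16.3%). The count was 6 of 10 for GSK343 against DMSO, where 25.2% of all genes did not overlap (5 lower, against 14%, and 1 higher, against 11.2%), and 5 of 10 for XL413 against DMSO, where 28.1% did not (4 lower, against 16.2%, and 1 higher, against 11.9%).

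Set against each single compound, the combination gave 0 of 10 calls by edgeR. Against GSK343 alone, 0.984% of all genes were called (0.337% lower and 0.648% higher), and 2 of the 10 genes and 3152 of all genes had an unadjusted p under 0.05; DESeq2 also called 0 of the 10. DDIT4 was at 113 ± 7.15 CPM with both and 125 ± 4.35 with GSK343 (SD, n = 3 each), a log2 fold change of −0.15 ± 0.0476 (adjusted p = 0.13), and 0.012 without GSK343+XL413 replicate 2. CEBPB was at 46.7 ± 3.63 CPM with both and 39.1 ± 3.98 with GSK343 (log2 fold change 0.26 ± 0.0796, adjusted p = 0.119). For TRIB3 and CHAC1 the log2 fold change was 0.06 ± 0.0523 and 0.01 ± 0.153, with 95% intervals of −0.06 to 0.17 and −0.32 to 0.34. TRIB3 was at −0.01 and CHAC1 at −0.09 without GSK343+XL413 replicate 2. Libraries did not overlap for 2 of the 10 genes, ATF3 and CEBPB, against 21.3% of all genes. Both were higher with the combination, as were 10.5% of all genes, and 0 were lower, against 10.8%.

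Against XL413 alone, 0.784% of all genes were called (0.227% lower and 0.557% higher), and an unadjusted p under 0.05 was found for 2 of the 10 genes and 2317 of all genes. ASNS was at 120.6 ± 6.18 CPM with both compounds and 136 ± 2.25 with XL413, a log2 fold change of −0.17 ± 0.0412 (adjusted p = 0.0843). DESeq2 called this fall (adjusted p = 0.00956), and so did edgeR without GSK343+XL413 replicate 2 (0.00224). STC2 was at 68 ± 4.87 CPM with both and 61.3 ± 2.79 with XL413 (log2 fold change 0.15 ± 0.0553, adjusted p = 0.234). Libraries did not overlap for ASNS and ATF3, 2 of 10, against 19.9% of all genes. ASNS was lower (9.84% of all genes) and ATF3 higher (10% of all genes).

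The interaction, the effect of GSK343 in the presence of XL413 minus its effect in the absence of XL413, was called for 0 of the 10 genes and 0% of all genes by edgeR. An unadjusted p under 0.05 was found for 1 of the 10, TRIB3, and for 413 of all genes, and DESeq2 called 0 of the 10 and 2 genes in all. For TRIB3 the interaction was 0.18 ± 0.0739 on the log2 scale (95% interval 0.02 to 0.34, adjusted p = 0.989), a combination level above the sum of the separate effects. Without GSK343+XL413 replicate 2 the TRIB3 interaction was 0.11 ± 0.0552 and was not called. With all 12 libraries the interval was −0.08 to 0.19 for ATF4, −0.05 to 0.20 for ASNS and −0.05 to 0.87 for CHAC1. The interaction does not compare GSK343 with XL413, and the compounds were not tested against each other. That a gene was called with GSK343 and not with XL413 is no measured difference between them.

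**Figure D3:**
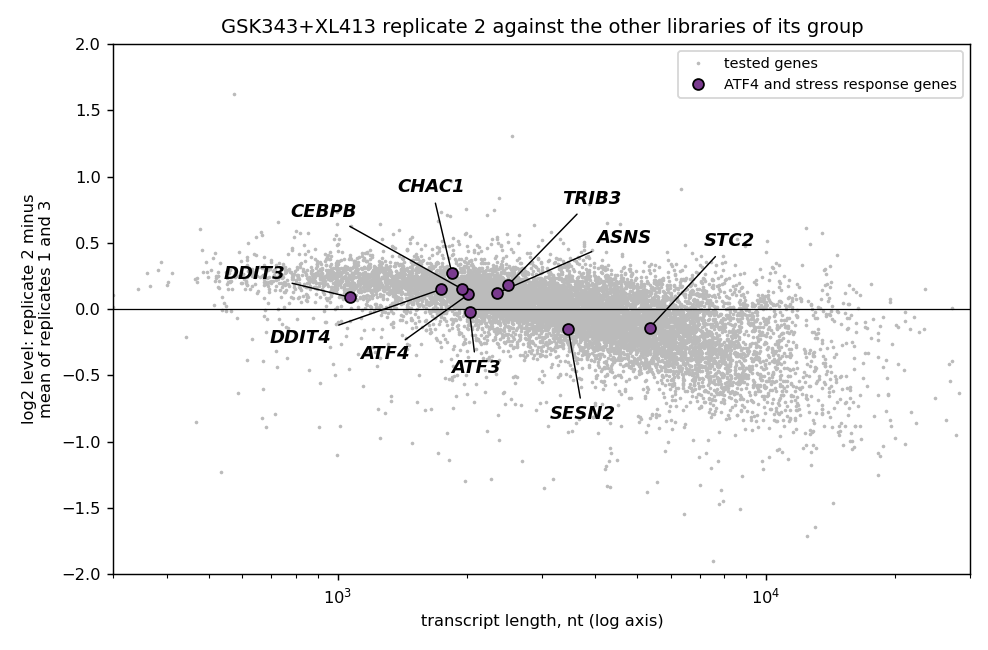
log2 level of each gene in GSK343+XL413 replicate 2 minus the mean of replicates 1 and 3, against transcript length in nt (log axis); grey points are tested genes with a mean of at least 1 log2 CPM and a known length, of which 18 lie outside the axes. The cloud slopes downwards, and of the 10 genes STC2 and SESN2, with the longest transcripts, lie lowest.

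GSK343+XL413 replicate 2 was the highest library of its group for 7 of the 10 genes and the lowest for SESN2, STC2 and ATF3. Its log2 deviation from the mean of the other 2 libraries was 0.11 for ATF4, 0.09 for DDIT3, 0.18 for TRIB3, 0.27 for CHAC1, 0.12 for ASNS, 0.15 for DDIT4 and 0.15 for CEBPB. It was −0.14 for STC2, whose transcript of 5353 nt is the longest of the 10, −0.15 for SESN2 at 3453 nt and −0.02 for ATF3 at 2033 nt. Over all genes the median deviation was 0.18 for transcripts of 1000 to 2000 nt, 0.07 for 2000 to 3000 nt and −0.11 for 4000 to 6000 nt. Without this library the falls in the combination were larger than with it for ATF4 (−0.23), TRIB3 (−0.26), CHAC1 (−0.58), ASNS (−0.37) and DDIT4 (−0.25), and so was the rise of STC2 (0.30). CEBPB was at 0.30 in that fit. When GC content and length were corrected for, a step chosen after the data were seen, the same number of genes, 7 of 10, was called with both compounds, 3 with GSK343 and 4 with XL413, against 17.9%, 3.11% and 3.52% of all genes.

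The other genes of the pathway were read from lists, upstream factors first. Of 8 genes for eIF2 kinases and their regulators, 0 were called in any comparison with DMSO, where 13.9% of all genes were called with both compounds, 1.17% with GSK343 and 0.427% with XL413. With both compounds, 1 rose without GSK343+XL413 replicate 2, 3 fell without GSK343+XL413 replicate 3 and 1 fell without GSK343 replicate 3. Of all genes, 15%, 16.7% and 13.8% were called in these fits. The haem-regulated kinase gene EIF2AK1 was at 139 ± 7.41 CPM with both compounds, 127 ± 4.19 with GSK343, 140 ± 2.46 with XL413 and 132 ± 4.32 in DMSO. It was the 1 that rose against DMSO without GSK343+XL413 replicate 2 (log2 fold change 0.13, adjusted p = 0.0315), and it also rose against GSK343 (0.18, adjusted p = 0.0261). The list's median log2 fold change was 0.016 with both compounds, 0.003 with GSK343 and −0.054 with XL413, beside 0.006, 0.0011 and −0.0068 for all genes. OMA1, a mitochondrial protease that relays mitochondrial stress, was higher with both compounds than with XL413 by 0.28 ± 0.0557 (log2, adjusted p = 0.0369), a call kept in 2 of 12 fits that left out a library: XL413 replicate 3 in one, GSK343+XL413 replicate 2 in the other. The adjusted p of the other fits reached 0.228.

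The next list held 11 genes: those of eIF2, its exchange factor eIF2B and its phosphatases, and EIF2A. Of these, 1 fell with both compounds and 1 rose with GSK343, both of them phosphatase genes (7.25% and 0.725% of all genes). No subunit of eIF2 or eIF2B was called against DMSO. The subunit gene EIF2S2 fell with GSK343 when GSK343+XL413 replicate 2 was left out (log2 fold change −0.11, adjusted p = 0.04). PPP1R15A (GADD34), the stress-induced eIF2 phosphatase subunit and itself an ATF4 target, was at 97.1 ± 4.08 CPM with both compounds, 103 ± 2.31 with GSK343, 81 ± 2.33 with XL413 and 89.9 ± 2.06 in DMSO. It rose with GSK343 by 0.19 ± 0.0429 (log2, adjusted p = 0.0483), a call kept in 2 of 12 fits, those without GSK343+XL413 replicate 1 or 2; the adjusted p of the others reached 0.183. It also rose with both compounds against XL413, by 0.26 ± 0.043 (adjusted p = 0.0111), a call lost without XL413 replicate 1 or 2 (up to 0.11). With XL413 alone its log2 fold change against DMSO was −0.15 ± 0.0431 (adjusted p = 0.149), and it was called lower without GSK343+XL413 replicate 2 (0.0322). Its constitutive relative PPP1R15B fell with both compounds, to 50.2 ± 1.11 CPM against 60.3 ± 1.53 in DMSO (log2 fold change −0.26 ± 0.0602, adjusted p = 0.0136, and 0.0531 without DMSO replicate 2). With XL413 it was at 52.1 ± 2.81 CPM (log2 fold change −0.21 ± 0.0602, adjusted p = 0.151, and 0.0476 without GSK343+XL413 replicate 2).

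The 3 biosynthetic lists of ATF4 targets were lower together. Of their 31 tested genes, 24 fell and 0 rose with both compounds, 9 fell and 0 rose with GSK343, and 0 were called with XL413 (9 of 31 and 24 of 31 stand beside 0.44% and 7.25% of all genes called lower). Without GSK343+XL413 replicate 2 the falls numbered 25 with both compounds, 19 with GSK343 and 7 with XL413. In that order they were 19, 8 and 0 with upper quartile scaling and 26, 17 and 7 with DESeq2. A fit of only the groups compared gave 12, 17 and 12, and the GC and length correction 29, 17 and 8. Of all genes, 15%, 6.15% and 4.85% were called in either direction without that library, and 13.9%, 1.08% and 0.369% with upper quartile scaling. They were 15.3%, 2.19% and 1.59% with DESeq2 and 17.9%, 3.11% and 3.52% with the correction. Fits of only the groups compared called 4.37%, 2.81% and 9.3%. These lists overlap in kind with a list of ATF4 targets that earlier work on these data found lower, so their direction is no independent evidence.

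In serine, glycine, proline and one-carbon metabolism, 8 of 11 genes fell with both compounds (median log2 fold change −0.263), 5 fell with GSK343 (−0.204) and 0 were called with XL413 (−0.097), against medians near 0 for all genes. PSAT1, the aminotransferase of serine synthesis, was at 298, 314 and 294 CPM with both compounds, 315, 312 and 309 with GSK343, 349.5, 349 and 362 with XL413, and 393, 395 and 388 in DMSO. No treated library reached the DMSO range. PSAT1 fell by 0.38 ± 0.0346 with both compounds (log2, adjusted p = 8.85e-05) and by 0.33 ± 0.0346 with GSK343 (0.000366), and both calls held without any one library. SHMT2, the mitochondrial serine hydroxymethyltransferase, fell by 0.23 ± 0.0364 and PYCR1, a proline synthesis enzyme, by 0.30 ± 0.0405 with both compounds, also in all 12 such fits. The count for GSK343 ran from 1 to 8 when a library was left out, lowest without DMSO replicate 1, and for both compounds from 6 to 9.

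Of 8 tested amino acid transporter genes, 6 fell with both compounds (median −0.288), 1 fell with GSK343 (−0.129) and 0 were called with XL413 (−0.18). Leaving out a library gave 5 to 7 with both compounds and 0 to 4 with GSK343, the 0 without DMSO replicate 2. SLC6A9, the glycine transporter GLYT1, was at 8.46, 9.54 and 8.85 CPM with both compounds, 11.4, 12.9 and 11.6 with GSK343, 13.4, 12.6 and 12.6 with XL413, and 15.7, 15.8 and 13.8 in DMSO. The combination libraries lay below all others. SLC6A9 fell by 0.75 ± 0.0774 against DMSO (log2, adjusted p = 0.000178), by 0.42 ± 0.0783 against GSK343 (0.0293) and by 0.52 ± 0.0781 against XL413 (0.00628). The call against GSK343 ended without GSK343+XL413 replicate 1, without GSK343 replicate 2 or 3 and without XL413 replicate 3 (highest adjusted p 0.126), and the other calls held in all 12 fits. SLC7A5, the large neutral amino acid transporter LAT1, was at 823 ± 65.9 CPM with both compounds and 1123 ± 24 in DMSO (log2 fold change −0.45 ± 0.0558, adjusted p = 0.000641). SLC1A5, the glutamine transporter ASCT2, fell to 334 ± 18.5 CPM with GSK343 against 405 ± 12.8 in DMSO (log2 fold change −0.28 ± 0.0427, adjusted p = 0.00767), a call lost without DMSO replicate 2 or 3 (up to 0.0643).

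Of 12 cytosolic aminoacyl-tRNA synthetase genes, 10 fell with both compounds (median −0.187), 3 fell with GSK343 (−0.123) and 0 were called with XL413 (−0.058). YARS, which charges tyrosine, was at 273 ± 1.26 CPM with both compounds, 279 ± 1.73 with GSK343, 312 ± 2.54 with XL413 and 325 ± 1.47 in DMSO. It fell by 0.25 ± 0.0296 with both compounds (log2, adjusted p = 0.000431) and by 0.22 ± 0.0296 with GSK343 (0.00287), in all 12 fits that left out a library. MARS, which charges methionine and overlaps DDIT3, fell by 0.31 ± 0.0352 with both compounds (adjusted p = 0.000364) and by 0.22 ± 0.0352 with GSK343 (0.0096), the second call lost without any 1 of the DMSO libraries or GSK343 replicate 3 (up to 0.0774). AARS was at 305 ± 21.5 CPM with both compounds and 358 ± 4.06 in DMSO (log2 fold change −0.23 ± 0.0444, adjusted p = 0.00567), and GARS at 254 ± 6.12 and 303 ± 5.07 CPM in the same groups (−0.25 ± 0.0334, adjusted p = 0.000917). The count for both compounds was 5 to 11 when a library was left out, lowest without DMSO replicate 1, and for GSK343 1 to 7, also lowest without DMSO replicate 1.

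**Figure D4:**
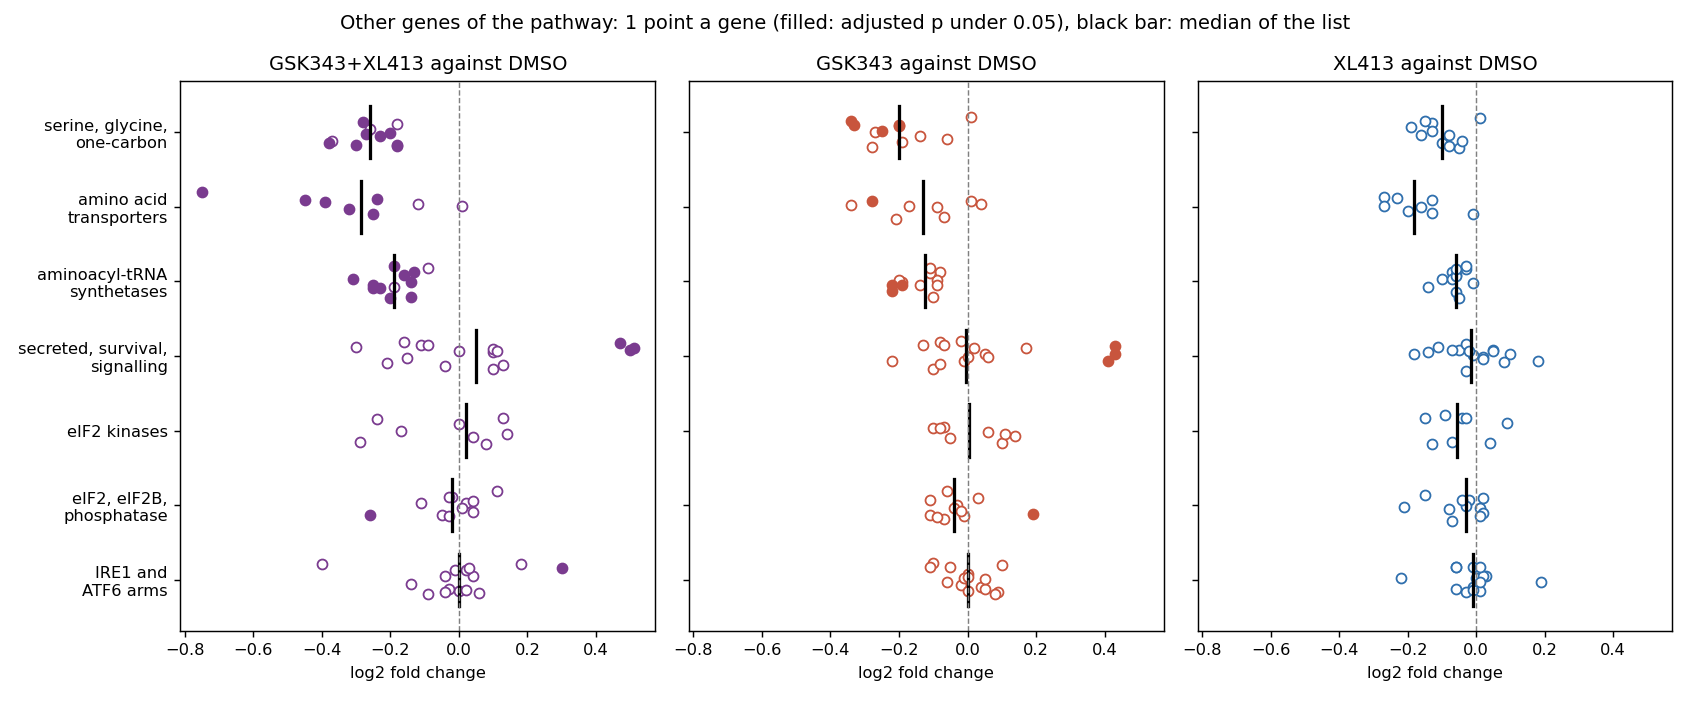
log2 fold change of each tested gene of 7 lists against DMSO, for GSK343+XL413, GSK343 and XL413; filled points have an adjusted p under 0.05, the black bar is the median of the list, and the vertical jitter has no meaning. Points of the 3 biosynthetic lists lie mostly left of 0 in all 3 panels, and the filled points of the secreted, survival and signalling list lie to the right.

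Of 16 tested secreted, survival and signalling targets of ATF4 and CHOP, 13 were not called in any of the 3 comparisons with DMSO. The same 3 rose with both compounds, where 6.69% of all genes did, and with GSK343, where 0.725% did; 0 were called with XL413, and 0 fell. GDF15, a secreted stress hormone, was at 14.9, 17.9 and 16.4 CPM with both compounds, 16, 16.2 and 14.5 with GSK343, 9.97, 9.78 and 11.6 with XL413, and 11.7, 11.7 and 11.1 in DMSO. It rose by 0.51 ± 0.0847 with both compounds (log2, adjusted p = 0.00295, in all 12 fits that left out a library) and by 0.43 ± 0.085 with GSK343 (0.0263), a call lost without any 1 of the DMSO libraries or GSK343 replicate 1 or 2 (up to 0.122). SQSTM1, the autophagy receptor p62, rose to 842 ± 50.2 CPM with both compounds and 801 ± 49.8 with GSK343, against 595 ± 6.12 in DMSO, and was at 585 ± 10.1 with XL413. WIPI1, an early autophagosome protein, rose by 0.47 ± 0.083 with both compounds (adjusted p = 0.00415) and by 0.41 ± 0.0832 with GSK343 (0.0322), the second of which ended without any 1 GSK343 library, XL413 replicate 3 or DMSO replicate 1 or 3 (highest adjusted p 0.158). The list's median log2 fold change was 0.047 with both compounds and −0.006 with GSK343.

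The other arms of the unfolded protein response, led by IRE1 and ATF6, gave 1 call in 15 genes with both compounds, against 13.9% of all genes, and 0 with either alone. The exception, CRELD2, an endoplasmic reticulum protein, rose by 0.30 ± 0.0844 (log2, adjusted p = 0.0333), a call kept in 6 of 12 fits that left out a library and ended by leaving out GSK343+XL413 replicate 2, GSK343 replicate 2, XL413 replicate 1 or any 1 of the DMSO libraries (highest adjusted p 0.121). HSPA5 (BiP), the chaperone that marks endoplasmic reticulum stress, was at 837 ± 1.21 CPM with both compounds, 857 ± 16.2 with GSK343, 850.2 ± 6.3 with XL413 and 889 ± 6.51 in DMSO, and was not called (adjusted p = 0.0586 with both compounds). HSPA5 was called lower with both compounds when GSK343+XL413 replicate 2 was left out (log2 fold change −0.08, adjusted p = 0.0435). The list then had 1 fall and 0 rises with both compounds and 1 fall with GSK343, against 15% and 6.15% of all genes called. The medians of this list were within 0.01 of 0 on the log2 scale in all 3 comparisons.

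Of 19 other bZIP factors and partners, 5 fell and 1, BATF3, rose with both compounds, against 7.25% of all genes lower and 6.69% higher, and 0 were called with either alone. Without GSK343+XL413 replicate 2, 4 fell and 0 rose with both compounds, 2 fell with GSK343 and 1 fell with XL413. In the same order, 15%, 6.15% and 4.85% of all genes were then called in either direction. The rise of BATF3, a bZIP factor of immune cells, was 0.44 ± 0.126 (log2, adjusted p = 0.0354). It was called in 6 of 12 fits that left out a library and ended without DMSO replicate 1 or 2, XL413 replicate 1 or 2 or GSK343+XL413 replicate 1 or 2 (highest adjusted p 0.125). The falls numbered 1 to 5 when a library was left out, fewest without DMSO replicate 2. ATF5, itself translated through upstream reading frames in stress, was at 42.9 ± 0.721 CPM with both compounds, 48.4 ± 0.532 with GSK343, 45.3 ± 0.0588 with XL413 and 49.4 ± 0.414 in DMSO. It fell by 0.20 ± 0.0362 (log2, adjusted p = 0.00408), in all 12 fits that left out a library. CREB1 fell by 0.21 ± 0.0587 and ATF7 by 0.22 ± 0.0589 (adjusted p = 0.0292 and 0.0251); both calls were lost without any 1 of the DMSO libraries or GSK343+XL413 replicate 2 (up to 0.0963). FOSL1, an AP-1 subunit, fell by 0.17 ± 0.0431 (adjusted p = 0.0241), lost without DMSO replicate 2 or 3 (up to 0.091).

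Of 6 tested paralogs of the 10 genes, 2 rose with both compounds and 0 fell, against 6.69% of all genes higher and 7.25% lower. STC1, the paralog of STC2, was at 20 ± 1.72 CPM with both compounds, 18.9 ± 2.46 with GSK343, 15.5 ± 0.314 with XL413 and 13.6 ± 1.1 in DMSO. It rose by 0.55 ± 0.0949 with both compounds (log2, adjusted p = 0.00357, in all 12 fits) and by 0.47 ± 0.0952 with GSK343 (0.0298), a call kept in 4 of 12 fits and lost without any DMSO or XL413 library or GSK343 replicate 2 or 3 (up to 0.154). SESN1, the p53-induced sestrin, was at 13 ± 0.966 CPM with both compounds and 10.7 ± 0.286 in DMSO (log2 fold change 0.28 ± 0.0664, adjusted p = 0.0157), a call that ended without GSK343+XL413 replicate 1 and without DMSO replicate 1 or 2 (highest adjusted p 0.0703). It was 1 call in 15 p53 targets, against 13.9% of all genes. With both compounds and without GSK343+XL413 replicate 2, the p53 targets gave 1 rise and 1 fall, where 15% of all genes were called. The fall was that of BAX, a pro-apoptotic BCL-2 family gene (log2 fold change −0.17, adjusted p = 0.0157).

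Across the 12 libraries, ATF4 varied most closely with DDIT4 (Pearson r 0.92, Spearman rho 0.88) and ASNS (r 0.84, rho 0.79), and TRIB3 with ASNS (r 0.85). STC2 ran opposite to ASNS (r −0.88) and TRIB3 (r −0.85), and DDIT3 had r between −0.26 and 0.57 with the other 9 genes. These values describe 12 libraries that share 4 treatments and their scaling, and carry no test. Among 12364 genes with a mean of at least 1 log2 CPM, the 6 most like ATF4 were SLC3A2, DUS3L, PPAN, PAGR1, GRWD1 and SMARCB1 (r 0.936 to 0.96). SLC3A2 encodes the heavy chain that pairs with SLC7A5 and SLC7A11, and was at 410.4 ± 27.8 CPM with both compounds, 431 ± 11.7 with GSK343, 422 ± 7.46 with XL413 and 485 ± 7.98 in DMSO. The 6 most like TRIB3 were EIF3B, VASP, FSCN1, LMNA, CTBP1 and PHGDH (r 0.939 to 0.975). Without GSK343+XL413 replicate 2, the r of these genes was 0.937 to 0.985 over 11 libraries.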

How the data were processed

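Per the submitters' processing notes, the authors used Bowtie2 2.1.0 and RSEM 1.2.15 with hg38; the deposited values are RSEM expected counts per gene, unscaled. Which annotation and strand setting were used in counting is not given in the sources used here. Libraries were poly-A selected and strand-specific per the labels' protocols.

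After rounding of expected counts, edgeR 4.0.16 (R 4.3.3) was used: filterByExpr (minimum count 10, minimum total 15) kept 15443 genes and removed 11032, TMM scaling, and a quasi-likelihood fit of group means over all 12 libraries (8 residual degrees of freedom). Two-sided p-values were adjusted by Benjamini-Hochberg over all tested genes; a call is an adjusted p below 0.05. The procedure was run on simulated data with changes in XL413 against DMSO only. Those changes were larger than the ones of most of the 10 genes. The simulated data held no outlying library and no trend with length, so the run cannot tell how these affect the calls. The SE was the absolute log2 fold change over the root of F. CPM used effective library sizes. Levels per length used the longest GENCODE 29 basic transcript; 23872 gene names matched directly and 718 through another symbol, and 1885 did not.

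The 10 genes, the 13 lists and the alternatives were chosen with earlier results of these data known. Named genes are the 10, up to 4 called genes with the smallest p per list and comparison (or the 2 with the highest level), and the 6 most like ATF4 and TRIB3. The list genes DDIT4L, SLC7A3 and FGF21 were removed by the filter. Alternatives were RLE and upper quartile scaling, DESeq2 1.42.0, no filter on low counts, a filter of 5 CPM in at least 3 libraries, a fit of only the groups compared, the replicate number as a block, and leaving out each library. An offset for transcript length and GC content was added after the data were seen.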

Additional observations from a re-analysis of the deposited data

How the results depend on the processing

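The number of the 10 genes called moved with the processing. With XL413 against DMSO it was 0, and 2 with DESeq2, 5 in a fit of only the groups compared and 4 with the GC content and transcript length correction; leaving out a library gave 0 to 4. With GSK343 against DMSO it was 2, and 1 with upper quartile scaling. It was 3 in a fit of only the groups compared and 3 with the correction, and leaving out a library gave 0 to 5. With both compounds against DMSO it was 7, and 4 with upper quartile scaling and 2 in a fit of only the groups compared; leaving out a library gave 2 to 7. Against GSK343 it was 0, and 3 with the GC and length correction; against XL413 it was 0, and 1 with DESeq2 and 2 with the correction; leaving out a library gave 0 to 1 in each, and 0 for the interaction. Where it changed, the cause was not tested.

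Counts over all tested genes moved too. XL413 against DMSO gave 66, and 245 with DESeq2, 1394 in a fit of only the groups compared, 543 with the correction and 16 to 756 without a library. GSK343 against DMSO gave 180, and 338 with DESeq2, 422 in a fit of only the groups compared, 481 with the correction and 37 to 958 without a library. Both compounds against DMSO gave 2152, and 657 in a fit of only the groups compared and 850 to 2610 without a library. Against GSK343 the counts were 152, and 582 with DESeq2, 0 in a fit of only the groups compared, 623 with the correction and 35 to 348 without a library; against XL413 they were 121, and 294 with DESeq2, 18 in such a fit, 345 with the correction and 40 to 252 without a library. The interaction gave 0, and 2 with DESeq2 and 1 with the correction, and has no fit of only 2 groups. The filter of 5 CPM removed CHAC1, which has no value there; at 99 to 198 counts per library it is the gene most limited by depth. Upper quartile scaling changed the balance: with GSK343, 136 higher and 31 lower, against 112 and 68 with TMM, and with both compounds 1367 and 778, against 1033 and 1119.

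Over 18 pairs of same-numbered libraries r was −0.415 to 0.34, and 4 pairs were over 0.1. Pairs with different numbers were not compared, so whether the replicate numbers pair the libraries was not tested. With a replicate block the calls were 0 of the 10 with XL413, 2 with GSK343, 6 with both compounds, and 0 in the other comparisons; over all genes 46, 108, 2065, 119, 96 and 0.

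Directions turned only for log2 fold changes that were not called. With the GC and length correction these were SESN2 with XL413 (0.013), DDIT3 with GSK343 (−0.005), with both compounds (−0.059) and against GSK343 (−0.054), CHAC1 against GSK343 (−0.052), and the interactions of DDIT4 (−0.022) and STC2 (0.009). Leaving out a library gave −0.092 to 0.009 for ATF3 and −0.05 to 0.017 for SESN2 with XL413, −0.022 to 0.072 for DDIT3 and −0.014 to 0.045 for ATF3 with GSK343. Against GSK343 it gave −0.085 to 0.107 for CHAC1, −0.011 to 0.084 for DDIT3 and −0.006 to 0.097 for TRIB3; against XL413 −0.19 to 0.004 for CHAC1 and −0.001 to 0.102 for CEBPB. In the interaction it gave −0.127 to 0.034 for CEBPB, −0.102 to 0.01 for STC2 and −0.036 to 0.039 for DDIT4.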

Other observations

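With both compounds, 1 of 10 hypoxia genes, 4 of 13 immediate early and feedback genes of the MAPK pathway and 1 of 5 glucocorticoid-responsive genes were called, against 13.9% of all genes. With GSK343 the calls were 2, 0 and 1, against 1.17% of all genes, and with XL413 0 in each list, against 0.427%. Without GSK343+XL413 replicate 2 the MAPK list gave 4 calls with both compounds and 4 with XL413. In those fits 15% and 4.85% of all genes were called. Among the hypoxia genes, CA9, a carbonic anhydrase, was at 1.3 ± 0.21 CPM with both compounds, 3.27 ± 0.25 with GSK343, 1.88 ± 0.152 with XL413 and 1.52 ± 0.458 in DMSO (SD, n = 3 each). It rose with GSK343 by 1.10 ± 0.189 on the log2 scale (adjusted p = 0.0139 by edgeR, lost without DMSO replicate 1 or 3 or GSK343 replicate 1 or 3, up to 0.083), and with both compounds it fell against GSK343 by 1.33 ± 0.191 (adjusted p = 0.00623, kept without any one library). SLC2A1, the glucose transporter GLUT1, fell by 0.26 ± 0.0323 with both compounds (adjusted p = 0.000641, kept without any one library). In the MAPK list, IER3 rose by 0.20 ± 0.0578 with both compounds (adjusted p = 0.0377, called in 5 of 12 fits) and was not called without any 1 of the DMSO or XL413 libraries or GSK343 replicate 2 (highest adjusted p 0.144). DUSP6 rose by 0.12 ± 0.0345 (adjusted p = 0.0385, called in 4 of 12 fits), a call lost without any 1 of the same 7 libraries or GSK343+XL413 replicate 1 (highest 0.156). ETV4 fell by 0.16 ± 0.0423 (adjusted p = 0.0263, called in 8 of 12 fits), a call lost without GSK343+XL413 replicate 1 or 3 or DMSO replicate 2 or 3 (highest 0.0989). CCND1, the cyclin D1 gene, fell by 0.22 ± 0.0418 (adjusted p = 0.00556, kept without any one library). Of the glucocorticoid-responsive genes, the clock gene PER1 was at 12.6 ± 0.868 CPM with both compounds and 17.5 ± 0.97 in DMSO (log2 fold change −0.47 ± 0.0736, adjusted p = 0.00214, kept without any one library).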
